A study of Homo sapiens with 24 samples.

Results

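HEPACAM2 overexpression in A549, an established line of human lung adenocarcinoma cells, was measured in 6 of the 24 libraries of a study of lung cancer lines. The members are the 3 libraries titled as overexpression (OE), in which HEPACAM2 is overexpressed per the genotype label, and the 3 titled as control, whose genotype label is WT. Both groups are cells of the same supplier (ATCC) grown in the medium it recommends, with no further agent, time or allele in the labels. Letter codes distinguish the groups in the deposited table, and what they stand for is not given. The labels do not say which promoter or vector drove HEPACAM2, whether the control cells carried an empty vector, or whether the OE cells are a clone or a pool. Per the series' design text, the replicates of a group are independent biological ones. The series' title places the gene in the relation of cells to their matrix, which is the question these groups bear on.

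HEPACAM2 is a membrane protein of the immunoglobulin superfamily, related to the hepatic and glial cell adhesion molecule HEPACAM. A549 cells are epithelial, yet they carry several programmes at once: they make gel-forming mucins, they secrete plasma proteins that are otherwise typical of hepatocytes, and, because KEAP1 is inactive in them, the transcription factor NRF2 holds detoxifying enzymes at very high levels. Contractile and matrix genes are commonly controlled by serum response factor (SRF) with its actin-sensing partners MRTFA and MRTFB, by the Hippo effectors YAP and TAZ with TEAD factors, and by transforming growth factor beta (TGF-beta), pathways that share many targets.

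Levels are given as normalized counts, that is, read counts divided by the size factor the authors gave each library. Values written as a mean ± SD have n = 3 libraries. Levels compare a gene between libraries but not one gene with another, because they are not divided by gene length. HEPACAM2 itself (chromosome 7, 93188586 to 93226524, minus strand, GRCh38) had 1, 0 and 0 reads in the controls and 5133, 7284 and 4974 in the OE libraries, or 1.1, 0 and 0 and 6074, 5864 and 6084 normalized counts. Gene-level counts do not separate reads of the introduced copy from those of the cell's own gene. Total reads per library ran from 17505943 to 29838960 in the controls and from 16358272 to 24633101 in the OE libraries. The epithelial markers matched the label in that all 6 were tested. Their summed level was 213736 to 222499 in the controls and 193752 to 203294 in the OE libraries. That sum is mostly KRT7, KRT8 and KRT18. Of the 6 markers 1 rose and 5 fell, among them EPCAM from 552 to 273. CDKN2A, which is deleted in A549, was not in the table. Of 10 fibroblast markers 4 were tested, COL1A2, DCN, FAP and POSTN were not in the table, and the summed level was 137 to 146 in the controls and 313 to 345 in the OE libraries. Of the alveolar markers none was tested, and of the blood markers only CD14, which fell.

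Of 16707 genes averaging 10 or more normalized counts in either group, 7417 (44.4%) differed between the groups at an adjusted p under 0.05. These calls come from limma on log2(normalized count + 1), and fold changes are OE minus control on that scale, which understates the change of low genes. "Rose" and "fell" are used for such calls only. The rises numbered 3756 (22.5% of tested genes) and the falls 3661 (21.9%). Most were small: 3398 of the calls (45.8%) were under 1.25-fold, against 964 (5.77% of tested genes) of at least 2-fold. Under 1.25-fold there were 2012 rises and 1386 falls, from 1.5-fold to 2-fold 451 and 721, and at 2-fold or more 378 rises (2.26% of tested genes) and 586 falls (3.51%). From 4-fold to 8-fold there were 68 rises and 89 falls, and among 35 changes of at least 8-fold, 14 were rises and 21 were falls. The median log2 fold change over all tested genes was -0.0019. The 3 values of a group did not overlap those of the other for 8651 genes (51.8%). These shares are the background for the counts of each gene list, and most list members are protein-coding genes, of which a larger share was called.

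The share of genes called followed their level. It was 23.2% among 4127 genes whose mean over both groups was under 50, 49.3% among 5498 genes between 200 and 1000, and 68.9% among 598 genes above 5000. In the highest of these classes 275 genes rose and 137 fell, while in the lowest 357 rose and 602 fell. The excess of falls at 2-fold or more lay in genes under 1000. There were 209 such rises and 354 falls under 50, 75 and 114 from 50 to 200, and 60 and 84 from 200 to 1000. From 1000 to 5000 there were 28 and 27, and above 5000 there were 6 and 7. Of 13105 protein-coding genes 50.1% were called, and of 2765 long non-coding RNAs 24.2%, of which 234 rose and 434 fell. The calls were spread over all chromosomes. The median change lay farthest from that of all genes on chromosome 2, where 29.4% of 1077 genes rose and 18.1% fell, a median log2 fold change of 0.05.

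**Figure D1:**
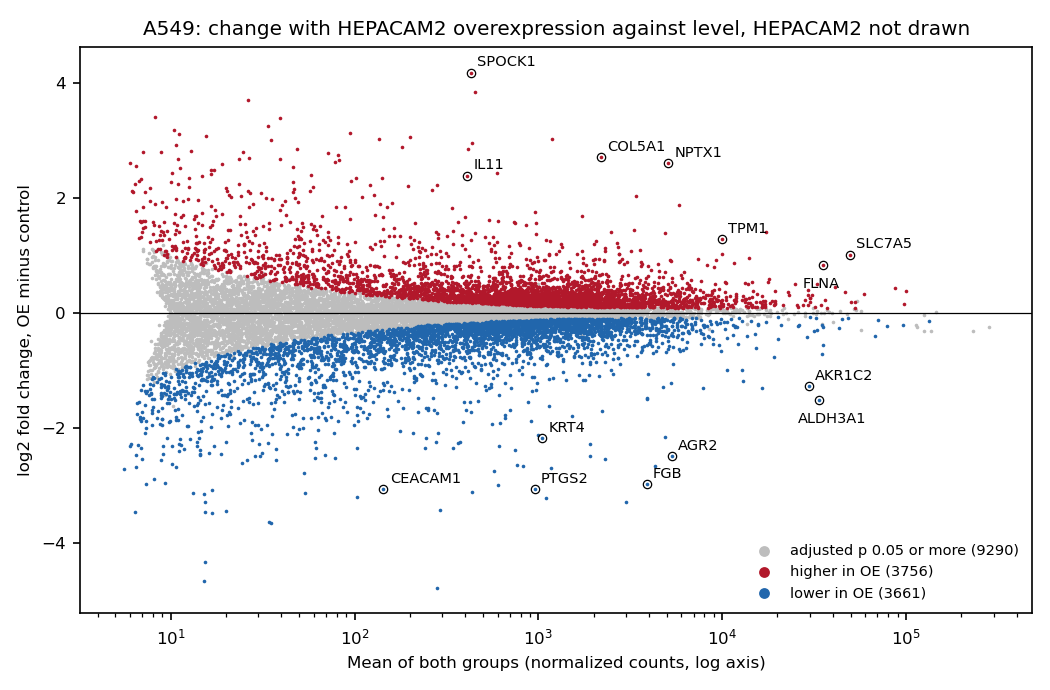
Change against level for the tested A549 genes other than HEPACAM2. The x axis is the mean of both groups in normalized counts on a log axis, the y axis the log2 fold change (OE minus control), and each point a gene, red where it rose (3756, HEPACAM2 included), blue where it fell (3661) and grey where it was not called (9290). Labelled genes carry a circle: SPOCK1, COL5A1, NPTX1 and IL11 lie at the top, CEACAM1, PTGS2, FGB and AGR2 at the bottom, and TPM1, FLNA, SLC7A5, AKR1C2 and ALDH3A1 at the right.

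The libraries of a group lay close together. On the log scale, pairs within a group correlated at 0.992 to 0.994 across genes, pairs between groups at 0.973 to 0.979, and the first principal component, which separated the groups, held 66.9% of the variance. The second held 9.96% and spread the OE libraries, with OE 1 at one end and OE 3 at the other. One library pattern touches many of the falls below and was noticed after the values were seen. The genes counted here had a mean of at least 200 in the higher group. Among 133 of them that fell at least 2-fold, OE 3 was the lowest OE library in 101 (75.9%), and control 3 was the lowest control in 93 (69.9%). Among 4470 genes of that level that were not called, OE 3 was lowest in 1394 (31.2%) and control 3 in 1954 (43.7%). Among 110 rises it was lowest in 35. Without OE 3, 913 genes passed at 2-fold or more, 357 higher and 556 lower. Whether this library's position has a part in any single fall was not tested. Each fall below whose values are given per library was also lower in OE 1 and OE 2 than in every control. Falls given only as means or log2 changes were not all checked for this.

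**Figure D2:**
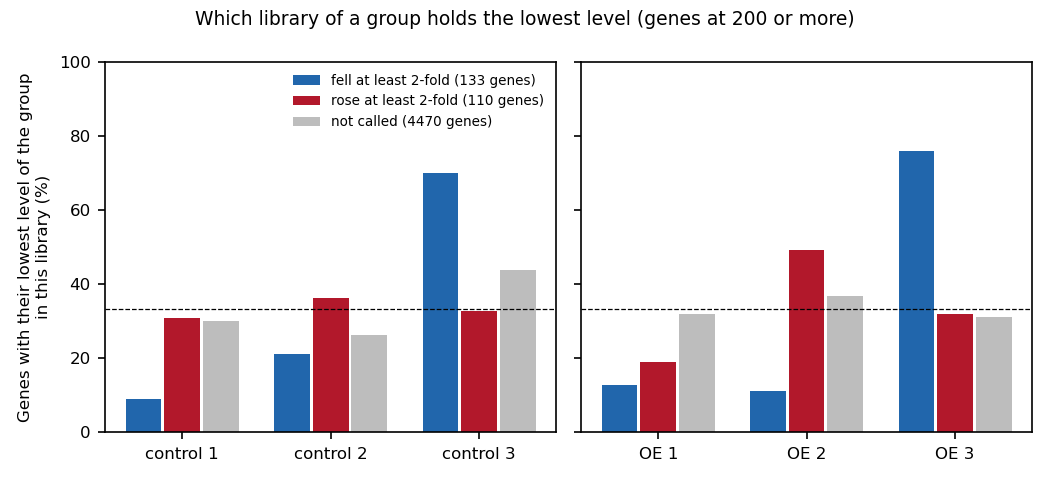
Share of genes whose lowest level within a group fell in each library. Bars give the percentage of genes in the controls (left) and the OE libraries (right), for genes averaging 200 or more normalized counts in the higher group. Blue is for 133 genes that fell at least 2-fold, red for 110 that rose at least 2-fold and grey for 4470 not called. The dashed line is an equal share. OE 3 held the lowest level for 75.9% of the falls and 31.2% of the genes not called, and control 3 for 69.9% and 43.7%.

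Among genes with a mean of at least 50 in the higher group, the 8 largest rises included HEPACAM2, SPOCK1, SPARC, TSPAN2, CCBE1, MOB3B and COL1A1, and the next 17 included matrix, adhesion and contractile genes beside genes usually linked to neurons or blood cells. FLRT2, a membrane protein that binds UNC5 guidance receptors, was 31.9, 23 and 33.1 in the controls and 246, 226 and 256 in the OE libraries. TAGLN, the actin-binding protein transgelin of smooth muscle, was 93.5, 92 and 109.9 in the controls and 774, 750.3 and 780.4 in the OE libraries. Its values in both groups lay within a narrow band and far apart from each other. MYL9, the regulatory light chain of non-muscle and smooth muscle myosin, was 18.7, 16.1 and 17.9 in the controls and 129, 124 and 127 in the OE libraries (change of 2.79 ± 0.19 SE on the log2 scale, adjusted p = 1.1e-16). CORO2B, a coronin that binds actin, rose from 7.11 ± 1.9 to 62.9 ± 7.85. In these contractile genes the lowest OE library was several times as high as the highest control.

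Among surface and matrix genes of the same ranks, COL5A1, a chain of the fibrillar collagen V, was 549.9, 573 and 613 in the controls and 4011, 3591 and 3771 in the OE libraries (change of 2.71 ± 0.05 SE on the log2 scale, adjusted p = 2.3e-39). ADAM19, a membrane metalloprotease, was 94.6, 112 and 94.7 in the controls and 741, 694 and 745 in the OE libraries. Integrin chains were in this group too. ITGA11, which pairs with the beta 1 chain to bind fibrillar collagen, was 39.6, 64.4 and 37.1 in the controls and 249.7, 249.6 and 210.4 in the OE libraries, and ITGB6, which pairs with ITGAV and binds the latent form of TGF-beta, was 14.3, 19.5 and 19.9 in the controls and 99.4, 91.8 and 103 in the OE libraries. In neither gene did the groups overlap, which was a condition for naming genes of these ranks. ESAM, an immunoglobulin superfamily adhesion molecule of endothelium, rose from 22.2 ± 7.85 to 135 ± 3.31, and PEAR1, a receptor known from platelets, from 20.4 ± 1.58 to 142 ± 14.

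NPTX1, a secreted neuronal pentraxin, was 1370.4, 1475 and 1490.1 in the controls and 8967, 8378 and 8940.0 in the OE libraries. KCNH1, a voltage-gated potassium channel, rose from 21.7 ± 1.9 to 142 ± 11.4. DOCK2, an activator of the GTPase RAC best known in blood cells, rose from 11.1 ± 1.07 to 86.1 ± 6.38. IL11, a cytokine of the interleukin 6 family, was 115, 144 and 134 in the controls and 730.1, 660.1 and 669 in the OE libraries. GLIPR1 rose from 188 ± 25 to 1010.3 ± 30.4, the carboxypeptidase CPA4 from 13.3 ± 4.6 to 79.2 ± 4.06 and NIPAL4, of a family of magnesium transporters, from 42.3 ± 4.71 to 318 ± 11.7. For all 17 genes the lowest OE value lay above the highest control value, which the rule that picked them required. Of all tested genes 51.8% did not overlap between the groups.

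Among genes of the same minimum level in the higher group, the 8 largest falls were CEACAM6, CST1, C9orf152, MUC5B, FGG, CP, SLPI and ST6GALNAC1, and the genes described next are the 17 that followed. CEACAM1, an adhesion molecule of epithelia, was 278, 255 and 238 in the controls and 34.3, 29.8 and 25.7 in the OE libraries (change of -3.07 ± 0.15 SE on the log2 scale, adjusted p = 3.5e-22). AGR2, a disulphide isomerase needed for mucin folding, was 9335, 9409.7 and 8319 in the controls and 1736, 1709.9 and 1383 in the OE libraries (change of -2.49 ± 0.11 SE on the log2 scale, adjusted p = 4.6e-05). MUC5AC, a gel-forming airway mucin, was 1490.3, 1229 and 1258 in the controls and 195, 234 and 199 in the OE libraries. In these genes every OE library was below every control, which their selection required, and the 3 controls differed by far less than the groups did. FGL1, a secreted relative of fibrinogen, fell from 1429 ± 107 to 226 ± 39.99.

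PTGS2 (cyclooxygenase 2, which makes the precursor of prostaglandins) was 1766, 1818 and 1529.8 in the controls and 207, 236 and 170.0 in the OE libraries. PDK4, a kinase that shuts off pyruvate dehydrogenase, was 3426, 3383 and 2895 in the controls and 595, 647 and 483 in the OE libraries, and GPX2, a glutathione peroxidase of epithelia, was 7578, 8026 and 6692 in the controls and 1251, 1316 and 975 in the OE libraries. OE 3 was the lowest OE library in each of the 3, while OE 1 and OE 2 lay close together, and control 3 was the lowest control in each. NTS, the peptide neurotensin, fell from 2033 ± 164 to 316 ± 70.1, and RBFOX3, a neuronal splicing factor, from 1064 ± 31.4 to 135 ± 32.2. HLA-DMB, which loads peptides on class II histocompatibility molecules, was 807, 818 and 721 in the controls and 101, 93.4 and 75.8 in the OE libraries, and its neighbour HLA-DMA fell from 162 ± 4.56 to 50.8 ± 6.88. AGTR1, the angiotensin receptor, fell from 64.8 ± 20.6 to 10.1 ± 3.15, LGR6, a receptor for R-spondins, from 92.8 ± 19.4 to 13.7 ± 7.42, and TNFSF15, a cytokine of the tumour necrosis factor family, from 104 ± 8.46 to 18.3 ± 7.7. TM4SF20 fell from 989 ± 102 to 152 ± 51.7 and PRR15 from 133 ± 5.14 to 23.1 ± 6.96.

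**Figure D3:**
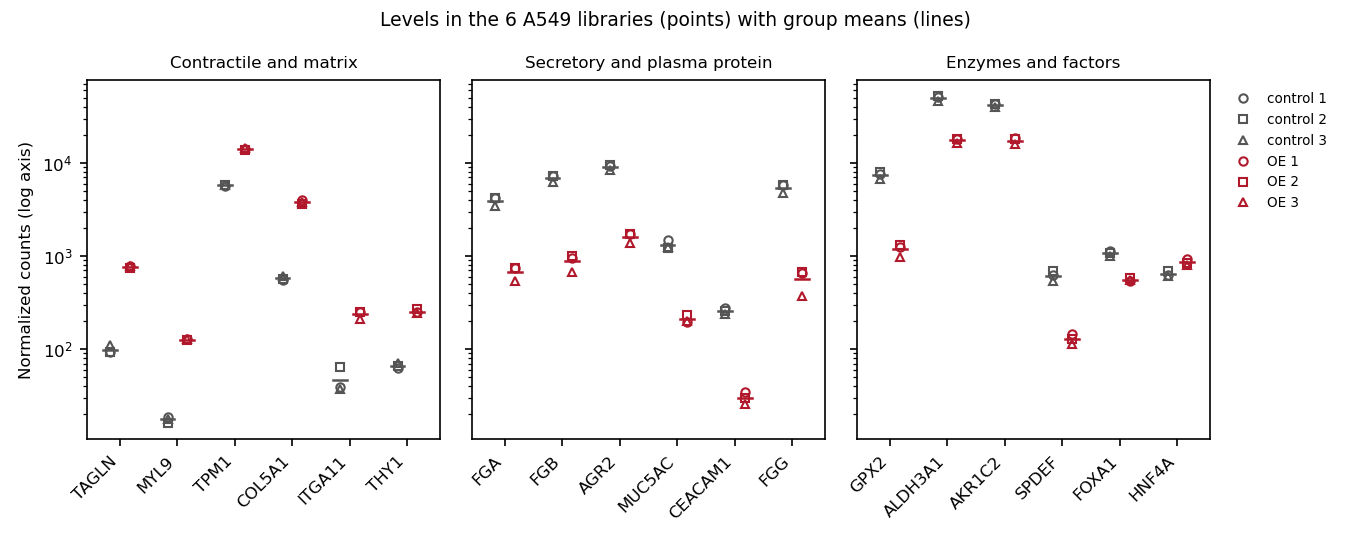
Levels of 18 genes in the 6 libraries. The y axis is normalized counts on a log axis; points are libraries (circle, square and triangle for replicates 1, 2 and 3; grey for control, red for OE) and lines are group means. The contractile and matrix genes lie higher in all OE libraries and the secretory genes lower. For FGA, FGB, FGG and AGR2, OE 3 is the lowest OE library and control 3 the lowest control. HNF4A lies higher in OE while FOXA1 and SPDEF lie lower.

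Genes of the contractile actin cytoskeleton, most of them SRF targets, rose as a list: of 52 tested members 43 rose, 5 fell and 4 were not called, and the median log2 fold change was 0.47 against -0.0019 over all tested genes. At 2-fold or more 9 rose and 2 fell. FLNA, the actin crosslinker filamin A, was 25413, 25447 and 25507 in the controls and 44095, 43733 and 48486 in the OE libraries. MYH9, the heavy chain of non-muscle myosin IIA, was 9448, 9553 and 9511 in the controls and 18073, 17795 and 19334 in the OE libraries, and TPM1, a tropomyosin, was 5715, 5758 and 5856 in the controls and 14004, 13804 and 14417 in the OE libraries (change of 1.28 ± 0.03 SE on the log2 scale, adjusted p = 2.0e-32). TNS1, a tensin of focal adhesions, rose from 43.2 ± 6.2 to 176 ± 7.53, PDLIM7, which links actin to LIM domain proteins, from 490.5 ± 18 to 1449 ± 25.2, and FHL2, a LIM-only cofactor, from 217 ± 19.8 to 553 ± 37.1. Of genes looked at after their values were seen, ZYX (zyxin) rose from 1209 ± 27.5 to 2887 ± 103, VCL (vinculin) from 5089 ± 105 to 9761 ± 278, ACTB (beta actin) from 74575 ± 989 to 100659.5 ± 1698 and SRF from 618 ± 10.5 to 969 ± 65.6. ACTA2, smooth muscle actin, rose by only 0.28 on the log2 scale. The falls were led by PDLIM5, which was 11207, 11657 and 10586 in the controls and 4581, 4702 and 4282 in the OE libraries, and by SYNPO2, at -1.18. MYL12A, MYL12B and MYLK, regulatory light chains and the kinase of the same motor, were not called, at -0.0046, -0.018 and -0.01.

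The promoters of 4 members are shown because the list is defined by SRF and overlaps the targets of TEAD factors. They are RefSeq windows of GRCh38.p14, written 5′ to 3′ in the direction of the gene, the 250 bases before its start, with the match in capitals. FHL2 (chr2:105438514-105438763, minus strand) and FLNA (chrX:154374635-154374884, minus strand) hold a CArG box, the SRF motif, which begins 101 and 94 bases before the start. MYH9 (chr22:36387968-36388217, minus strand), which rose, and SYNPO2 (chr4:118850431-118850680, plus strand), which fell, hold GGAATG, the TEAD motif, 70 and 214 bases before it.
FHL2: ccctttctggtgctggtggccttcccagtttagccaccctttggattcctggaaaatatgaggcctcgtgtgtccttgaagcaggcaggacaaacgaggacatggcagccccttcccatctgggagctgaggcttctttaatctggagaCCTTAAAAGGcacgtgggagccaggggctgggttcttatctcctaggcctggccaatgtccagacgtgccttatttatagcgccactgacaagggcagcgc
FLNA: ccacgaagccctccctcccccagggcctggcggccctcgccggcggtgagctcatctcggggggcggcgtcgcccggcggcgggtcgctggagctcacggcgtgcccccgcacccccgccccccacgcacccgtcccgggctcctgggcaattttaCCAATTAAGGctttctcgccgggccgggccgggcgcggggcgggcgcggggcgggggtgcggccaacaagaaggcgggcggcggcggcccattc
MYH9: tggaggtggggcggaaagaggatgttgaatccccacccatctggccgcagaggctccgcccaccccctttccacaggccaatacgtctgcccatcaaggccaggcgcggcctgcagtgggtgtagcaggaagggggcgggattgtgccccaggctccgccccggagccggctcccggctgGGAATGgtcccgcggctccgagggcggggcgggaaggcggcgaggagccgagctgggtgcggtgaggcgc
SYNPO2: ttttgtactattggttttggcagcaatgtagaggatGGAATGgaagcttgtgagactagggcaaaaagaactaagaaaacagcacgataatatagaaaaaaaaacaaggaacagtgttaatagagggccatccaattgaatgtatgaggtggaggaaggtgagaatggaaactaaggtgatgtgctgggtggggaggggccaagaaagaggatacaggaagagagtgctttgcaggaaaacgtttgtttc
Both strands were searched for both motifs over windows of 300 bases, which run to 50 bases past the start, and in the windows shown no match of one lies within a match of the other. A CArG box was in 351 of 27305 promoters (1.29%) and in 7 of the 47 tested list members that matched the table by symbol. Those 7 were ACTG1, CNN2, FHL2, FLNA, SRF and TPM4, which rose, and MYLK, which was not called. GGAATG was in 14.05% of all promoters and in 8 of the 47. A match is a string of letters and not a measured site.

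Hippo effectors and the genes known as YAP targets had 45 tested members, of which 31 rose, 5 fell and 9 were not called, with a median log2 fold change of 0.31. CCN2, a matricellular growth factor, was 553, 526 and 591 in the controls and 1220.0, 1160.1 and 1268 in the OE libraries. VGLL4, a protein that competes with YAP for TEAD, was 833, 904 and 778 in the controls and 1906, 1854 and 1787 in the OE libraries, and CDC42EP3, a regulator of the septin and actin network, was 786, 754 and 741 in the controls and 1515, 1418 and 1665 in the OE libraries. LHFPL6 rose from 15 ± 3.24 to 77.4 ± 22.1. The effectors themselves moved little: YAP1 rose by 0.11 and WWTR1, which encodes TAZ, fell by 0.18 on the log2 scale. ANKRD1, a target usually read with CCN2, fell by 0.39. The list shares AXL, MYOF, TGFB2 and FOXF2, among others, with the lists of growth factors, TGF-beta and mesenchymal genes, so their counts are not independent.

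In the TGF-beta and bone morphogenetic protein (BMP) list, 22 of 53 tested members rose and 16 fell, with a median of 0.03. The share called was 71.7%, against 50.1% of protein-coding genes. Of ligands, BMP4 was 1058, 1046 and 969.5 in the controls and 316, 296 and 257 in the OE libraries and fell, and TGFB2 rose from 1273 ± 7.39 to 1804 ± 88.8. BMP6 fell from 583 ± 108 to 203 ± 62.9, a call that was lost without control 1 and without control 2. Among antagonists of BMPs, GREM1 (gremlin) was 348, 375 and 343 in the controls and 892, 785 and 827 in the OE libraries, while BAMBI, a decoy receptor that is itself a BMP target, fell from 887 ± 91.8 to 327 ± 26.2. PMEPA1, a TGF-beta target that restrains the pathway, was 1366, 1312 and 1362 in the controls and 5557, 5533 and 5359 in the OE libraries (change of 2.02 ± 0.04 SE on the log2 scale, adjusted p = 3.1e-38), and SMAD7, an inhibitory SMAD named after its value was seen, rose from 353 ± 22.5 to 757 ± 21. Of other receptor and SMAD genes, TGFBR1 rose by 0.58 and TGFBR2 fell by 0.38, SMAD3 rose by 0.41, and SMAD4 was not called at -0.02. ID1, a BMP target, fell from 6999.9 ± 141 to 3794 ± 78.8, while ID3 rose from 4192 ± 129 to 5947 ± 161.

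The matrix lists did not move one way. Of 26 collagen genes tested, 12 rose, 7 fell and 7 were not called, with a median of 0.18. After COL1A1 and COL5A1, the largest rises at a mean of at least 50 were COL7A1 of anchoring fibrils, from 1784 ± 207 to 4829 ± 172, COL4A1 of basement membranes, with 1835, 1799.6 and 1817 in the controls and 3713, 3522 and 3809 in the OE libraries, and COL12A1, from 129 ± 14.2 to 237 ± 15.4. COL5A2, which assembles with COL5A1, fell from 8658 ± 145 to 7304 ± 209.6, and COL1A2, the partner of COL1A1, was not in the table. Enzymes that fold, hydroxylate and crosslink collagen mostly fell by small amounts, 13 of 23 against 6 rises, with a median of -0.15. P4HB, the beta subunit of prolyl hydroxylase, fell from 17161 ± 573 to 13216 ± 252 and SERPINH1, the collagen chaperone HSP47, from 3784 ± 62.7 to 2919 ± 117. The rises in that list were led by P4HA3, a catalytic subunit of the same hydroxylase, from 145 ± 17 to 318 ± 23.5, and by LOXL2, a lysyl oxidase, from 1942 ± 27 to 3583 ± 192.

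Of 40 glycoproteins and proteoglycans of the matrix 17 rose and 13 fell, and of the 14 that changed at least 2-fold 10 rose. TGFBI, a matrix protein that binds integrins, was 9479.6, 9537 and 9438 in the controls and 25811, 25247 and 24336 in the OE libraries. IGFBP7 was 834, 768 and 843 in the controls and 2685, 2468 and 2725 in the OE libraries. FBN2, a fibrillin of microfibrils named after its value was seen, rose from 544 ± 34.1 to 1408 ± 85.9. FN1 (fibronectin) fell from 2502 ± 237 to 1879 ± 160.0 and VTN (vitronectin) from 378 ± 36.4 to 167 ± 8.43. Among basement membrane genes 4 of 18 rose and 6 fell, and the 55.6% called lie near the 50.1% of protein-coding genes. LAMB3, a laminin chain, was 368, 388 and 323 in the controls and 188, 158 and 172 in the OE libraries and fell, and the chain LAMA3 was not called at -0.024. SMOC1, a BMP-binding protein of basement membranes, was 433, 473 and 472 in the controls and 84, 112 and 93 in the OE libraries.

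Proteases and their inhibitors split in the same manner, with 15 of 38 rising and 13 falling. PLAT, the tissue activator of plasminogen, rose from 27.4 ± 5.54 to 77.6 ± 7.58, and PLAU, the urokinase activator, named after its value was seen, from 1452 ± 88 to 3159.6 ± 193. MMP2, a gelatinase, was 64.9, 64.4 and 45.7 in the controls and 207, 235 and 205 in the OE libraries, while MMP7 (matrilysin), which epithelia secrete, was 1022, 1005 and 1053 in the controls and 327, 305 and 263 in the OE libraries and MMP28 fell from 74.3 ± 5.68 to 18.1 ± 3.1. Integrins had 7 rises and 7 falls among 23 tested, with a median of -0.12, and 60.9% were called against 50.1% of protein-coding genes. Integrin changes of at least 2-fold included falls of ITGA10, from 102 ± 13.7 to 30.8 ± 10.1, and of ITGB2, from 98.8 ± 10.6 to 33.2 ± 4.21. ITGB1 fell by only 0.09 and ITGAV rose by 0.39 on the log2 scale. ITGB5 fell from 14565 ± 741 to 9952 ± 166.

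Of 45 other immunoglobulin superfamily adhesion genes tested, 13 rose and 22 fell, so that 77.8% were called against 50.1% of protein-coding genes. THY1, a surface protein of fibroblasts and neurons, was 62.7, 65.5 and 71.5 in the controls and 249.7, 266 and 242 in the OE libraries, and CLMP rose from 166 ± 10.8 to 329.9 ± 16.4. CNTN1, a neuronal contactin, was 14564, 14835 and 13160.4 in the controls and 7462, 7286 and 6611 in the OE libraries. HEPACAM, a relative of the introduced gene, was not in the tested set. Mesenchymal genes had 17 rises and 9 falls among 39, with 66.7% called and a median of 0.32. CDH2 (N-cadherin) was 664, 681 and 661 in the controls and 1280.3, 1137 and 1271 in the OE libraries, BNC2 was 115, 114 and 114 in the controls and 301, 298 and 262 in the OE libraries, and GLI2, an effector of Hedgehog signalling, rose from 466 ± 29.4 to 912 ± 68. Genes named after their values were seen did not all follow: VIM (vimentin) rose from 14502 ± 469.8 to 20920.4 ± 723, ZEB1 was not called at 0.11, and TWIST1 fell from 160.2 ± 13.8 to 94.5 ± 3.56. Of the 4 fibroblast markers tested, THY1 and PDGFRA rose, and COL3A1 and LUM were not called, at -0.45 and 0.39. PDGFRA lay near the floor, at a mean of 1.98 in the controls and 10.8 in OE. It passed the filter at 10 only through the OE libraries, so its rise bears little weight. The summed level of 137 to 146 in the controls and 313 to 345 in OE also includes PDGFRB and COL6A3, which were below the filter. It moved mainly with THY1, and the part of fibroblast markers in these results was not tested.

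**Figure D4:**
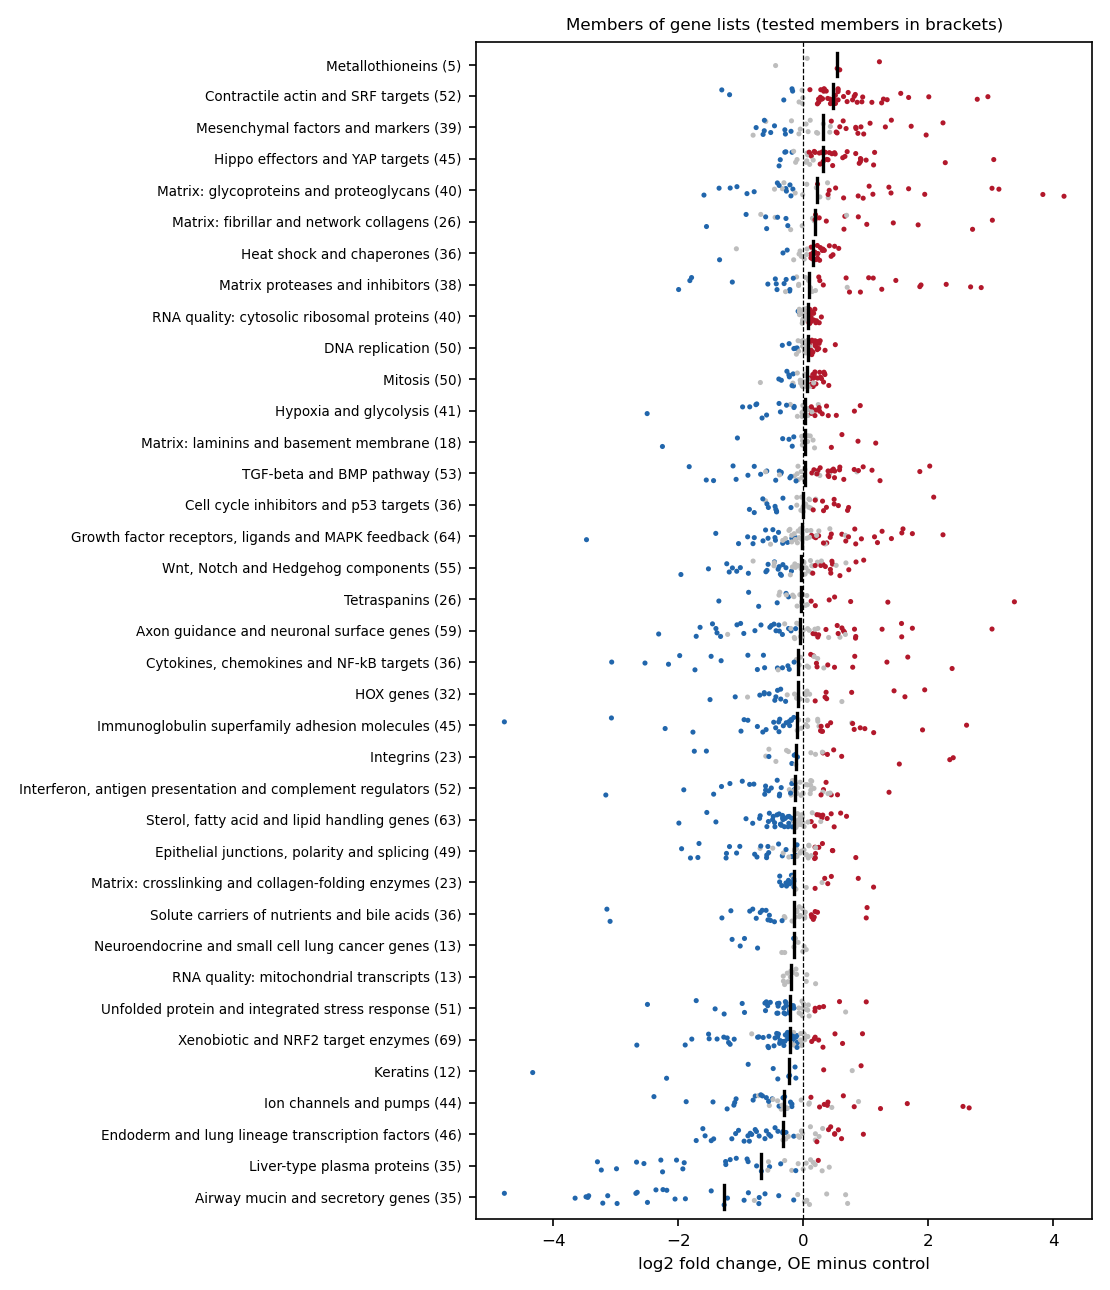
Log2 fold changes of the tested members of gene lists, ordered by median. The x axis is the log2 fold change (OE minus control), each point a gene (red rose, blue fell, grey not called), the black bar the list's median and the dashed line the median of all tested genes; tested members are in brackets. Contractile genes have a median of 0.47 and airway mucin and secretory genes one of -1.26.

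Airway mucin and secretory genes moved the other way more than any other list examined here by median: of 35 tested members none rose, 26 fell and 9 were not called, with a median of -1.26, and 19 fell at least 2-fold. With limma without its trend and robust settings, or without OE 1, 1 member rose. FCGBP, a mucin-bound protein, fell from 174 ± 26.7 to 33.4 ± 6.56, and S100P from 401 ± 62.5 to 86.9 ± 5.83. B3GNT3, which extends mucin sugars, fell from 285 ± 6.12 to 68.2 ± 5.22, and SPDEF, the factor of goblet cell differentiation, was 628, 683 and 536 in the controls and 144, 129.6 and 114 in the OE libraries. These 4 were named after their values were seen. ALDH1A1, an enzyme included as a club cell gene, was not called at 0.02, nor was C1GALT1, which starts the core of mucin sugars, at -0.086. Of 76 names on the list 41 were not tested, among them the surfactant genes.

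Plasma proteins typical of liver fell in 21 of 35 tested members, with 1 rise and 13 not called, and a median of -0.67. The share called was 62.9%, against 50.1% of protein-coding genes. The rise was APOC1, at 0.24, and 2 members rose under some alternatives. The 3 fibrinogen chains, which assemble into 1 molecule and lie side by side on chromosome 4, fell together. FGA was 4155, 4181 and 3412 in the controls and 735, 741 and 543 in the OE libraries, FGB was 7224, 7250.2 and 6168 in the controls and 957, 1001 and 675 in the OE libraries and FGG was 5794, 5752 and 4723 in the controls and 658, 680.3 and 373 in the OE libraries. OE 3 was below the other OE libraries in each, and control 3 below the other controls. OE 1 and OE 2 were also far below every control. TFPI, an inhibitor of coagulation named after its value was seen, fell from 3435 ± 135 to 1636 ± 81.3. Members not called included TFPI2 at -0.08, APOE at 0.048 and F3, tissue factor, at 0.16. Most members made only in liver were not tested, ALB among them.

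Transcription factors of endoderm and lung fell in 26 of 46 tested members and rose in 8, with a median of -0.33. XBP1, which drives secretory capacity, was 3494, 3653 and 3038 in the controls and 1074, 1084 and 947 in the OE libraries (change of -1.71 ± 0.07 SE on the log2 scale, adjusted p = 1.4e-10). FOXA3 fell from 164 ± 13.9 to 59.2 ± 11.1, KLF5 from 2252 ± 108 to 1064 ± 35.8 and TP63 from 113 ± 14.1 to 41.8 ± 9.87. The regulators usually named for hepatic genes did not share 1 direction, although they were looked at after the plasma genes. HNF4A was 630.2, 686 and 611 in the controls and 918, 832 and 805 in the OE libraries and rose, FOXA1 was 1137, 1087 and 1004 in the controls and 541, 585 and 548 in the OE libraries and fell, and FOXA2 fell by 0.15. GATA6 was not called at -0.32, and CEBPA fell from 244 ± 10.3 to 134 ± 6.2. NKX2-1, the lung lineage factor, was not in the table.

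Xenobiotic enzymes and NRF2 targets fell in 46 of 69 tested members, rose in 8 and were not called in 15, with a median of -0.21, and 11 fell at least 2-fold. ALDH3A1, an aldehyde dehydrogenase, was 50671, 51925 and 46833 in the controls and 18035, 18096 and 16234 in the OE libraries. AKR1C2 was 42726, 42879 and 40055 in the controls and 18312, 18063 and 15825 in the OE libraries, and AKR1B10 was 44236, 44578 and 41772 in the controls and 27375, 26570.2 and 25905 in the OE libraries; both are aldo-keto reductases, whose members are near copies of each other, so reads may have been split between AKR1C1, AKR1C2 and AKR1C3 in ways the counts do not show. CYP4F3 fell from 1442 ± 41.9 to 391 ± 47.3 and CYP3A5 from 159 ± 21.4 to 46.1 ± 10.3. Among other NRF2 targets NQO1 fell from 36160.3 ± 1253 to 29496 ± 440.4, TXNRD1 by 0.10 and GCLM by 0.10 on the log2 scale. SRXN1 and GCLC were not called, at 0.025 and 0.074, HMOX1 rose from 2227 ± 111 to 3446 ± 57.5, and NFE2L2, the gene of NRF2, was not called at -0.029. These 7 genes were named after their values were seen.

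The promoter of GPX2 (chr14:64942746-64942995, minus strand) is shown as that of a list member that fell more than 5-fold. It holds TGACNNNGC, the core of the antioxidant response element, on the opposite strand, 122 bases before the start.
GPX2: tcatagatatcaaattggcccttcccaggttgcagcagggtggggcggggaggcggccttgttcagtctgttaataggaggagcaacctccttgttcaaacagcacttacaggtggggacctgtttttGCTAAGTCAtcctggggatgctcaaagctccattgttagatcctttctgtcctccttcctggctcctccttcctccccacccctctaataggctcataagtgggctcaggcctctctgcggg
TGACNNNGC was in 13.6% of the 27305 promoters, both strands searched. Only 72.5% of the tested enzymes had a window in the table, which is under 80%, so the check of their share was void and none is given.

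Epithelial junction and polarity genes fell in 22 of 49 tested members and rose in 9, with a median of -0.14. The share called was 63.3%, against 50.1% of protein-coding genes. The 9 falls of at least 2-fold met no rise of that size. CLDN2, a channel-forming claudin, was 222, 235 and 246 in the controls and 82.8, 82.1 and 42.8 in the OE libraries, with OE 3 lowest by a wide margin. CDH17, an intestinal cadherin, was 416, 376 and 351 in the controls and 131, 129.6 and 95.4 in the OE libraries, and TJP3, a tight junction scaffold, was 225, 243 and 218 in the controls and 67.4, 63.6 and 84.4 in the OE libraries. EHF, an epithelial transcription factor, fell from 53.1 ± 2.34 to 14 ± 6.11. Of the epithelial markers EPCAM was 591, 568 and 499 in the controls and 284, 288 and 247 in the OE libraries and fell, and CDH1, E-cadherin, was 1637, 1527 and 1576 in the controls and 924, 927 and 987 in the OE libraries and fell by less than 2-fold. TJP1 and CGNL1 rose, at 0.47 and 0.84 on the log2 scale, and DSP and OCLN were not called, at 0.093 and 0.09. Of 12 keratins tested 9 fell and 2 rose. KRT4 was 1663, 1781 and 1701 in the controls and 392, 370.3 and 367 in the OE libraries, while KRT8 and KRT18 fell by 0.23 and 0.41. KRT7 rose from 52435 ± 476 to 65871 ± 2762, and KRT80 from 1475 ± 49.6 to 2805 ± 137.

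Growth factor and MAPK genes showed 22 rises and 17 falls among 64, so that 60.9% were called against 50.1% of protein-coding genes. FOSL1, a component of the transcription factor AP-1, was 310.2, 297 and 293 in the controls and 953, 877 and 900.2 in the OE libraries and JUN, another, was 355, 370.3 and 379 in the controls and 1184, 1013 and 1114 in the OE libraries (change of 1.58 ± 0.06 SE on the log2 scale, adjusted p = 1.3e-25), while FOS, named after its value was seen, fell from 160.4 ± 41.9 to 101 ± 15.3. DUSP1, a phosphatase of MAP kinases, rose from 1359.6 ± 111 to 3613 ± 138, whereas DUSP4 and DUSP6, feedback targets of ERK, fell by 0.56 and 0.48, and SPRY1, a feedback inhibitor, from 88 ± 18.1 to 33.1 ± 9.49. EGFR rose from 1962 ± 25.5 to 3748 ± 204 and MET from 3767 ± 139.6 to 5787 ± 203, ERBB3 fell from 204 ± 12 to 109.8 ± 4.9. EPHB2, an ephrin receptor, was 395, 503 and 427 in the controls and 1454, 1439 and 1539.9 in the OE libraries. Guidance genes split evenly, 18 rises and 22 falls among 59, so that 67.8% were called against 50.1% of protein-coding genes. FLRT2 rose and its relative FLRT3 fell, the latter 1033, 1041 and 978 in the controls and 226, 233 and 161 in the OE libraries. SEMA7A rose from 21.8 ± 3.07 to 67.3 ± 12 and PLXNA2, a semaphorin receptor, fell from 157 ± 13.1 to 57.2 ± 9.49.

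Wnt, Notch and Hedgehog components fell in 19 of 55 tested members and rose in 13. The 58.2% called lie near the 50.1% of protein-coding genes, and the median of -0.03 lies near that of all genes. AXIN2, a Wnt target and inhibitor, was 326, 319 and 280.1 in the controls and 141, 144 and 155 in the OE libraries, RNF43, which removes Wnt receptors, was 161, 178 and 171 in the controls and 59.2, 59.6 and 57.5 in the OE libraries, and DKK1, a secreted Wnt inhibitor, was 7719, 7461 and 7031 in the controls and 3292, 3258 and 2971 in the OE libraries. These 3 fell. NOTCH3 fell from 1649 ± 85.1 to 752 ± 32.8, and JAG1, a Notch ligand named after its value was seen, rose from 1470.2 ± 46.6 to 2440.0 ± 111. Cytokine and NF-kB genes had 11 rises and 16 falls among 36, so that 75.0% were called. CXCL5, a neutrophil chemokine, was 8039, 8229 and 7611 in the controls and 1857, 1767 and 1737 in the OE libraries (change of -2.15 ± 0.04 SE on the log2 scale, adjusted p = 2.3e-39), CXCL3 fell from 139 ± 7.09 to 42.7 ± 14, and IL32 rose from 31.4 ± 6.41 to 101 ± 9.34. CCL2, a monocyte chemokine named after its value was seen, rose from 101 ± 26.2 to 253 ± 14. NFKBIA, the feedback inhibitor of NF-kB, fell by only 0.22.

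Interferon and antigen presentation genes had 6 rises and 21 falls among 52, and 5 of the falls were of at least 2-fold. The 51.9% called lie near the 50.1% of protein-coding genes. OAS1, an antiviral sensor, was 1033, 1017 and 869 in the controls and 257, 277 and 239.7 in the OE libraries. IFITM2 and IFITM3, antiviral membrane proteins with near-identical sequences, fell from 1010.4 ± 51.1 to 408 ± 27.7 and from 148 ± 2.45 to 54.5 ± 6.92, and CD55, which restrains complement, from 2489 ± 102 to 1106 ± 83.5. ISG15 was not called, at 0.12.

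Genes of the unfolded protein and amino acid responses fell in 31 of 51 tested members and rose in 6, with a median of -0.21. After AGR2 and XBP1, CHAC1 fell from 166 ± 28.7 to 62.4 ± 14.2, CREB3L1 from 96.3 ± 16.1 to 39.4 ± 5.17 and ASNS, asparagine synthetase, from 105 ± 18.6 to 52.8 ± 7.33. The chaperone HSPA5 (BiP) fell by 0.22, and DDIT3 by 0.39 on the log2 scale. SLC7A5, a transporter of large neutral amino acids, was 31880.1, 33841 and 32672 in the controls and 65665, 63639 and 68773 in the OE libraries, and its partner SLC3A2 rose from 14488 ± 274 to 21685 ± 817. Lipid genes fell in 31 of 63 and rose in 11, so that 66.7% were called against 50.1% of protein-coding genes. HMGCS1, an early enzyme of cholesterol synthesis, rose by 0.31 on the log2 scale, and ABCA1, which exports cholesterol, rose from 223 ± 11.7 to 361 ± 12.1.

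CAV1, the coat protein of caveolae, was 6439.6, 6732 and 6588 in the controls and 13414, 12753 and 13879 in the OE libraries and CAVIN1, its scaffold, was 7885, 8588 and 8186 in the controls and 14933, 14278 and 15495 in the OE libraries, and both rose. RHOV, a GTPase, was 706, 663 and 624 in the controls and 195, 234 and 172 in the OE libraries and fell. Cytosolic chaperones rose in 25 of 36, 0 of them 2-fold, with a median of 0.16. The 3 falls included 1 of at least 2-fold, at -1.34 on the log2 scale. HSPA8 was 20099.6, 20913 and 20537 in the controls and 29347, 28004 and 29902 in the OE libraries, and HSP90AA1 rose from 34924 ± 1605 to 47611 ± 1803. Ion channels fell in 21 of 44 and rose in 11. The water channel AQP3 was 1302, 1387 and 1070.2 in the controls and 286, 270.5 and 172 in the OE libraries, SCNN1B, a subunit of the epithelial sodium channel, fell from 110.0 ± 5.28 to 29.8 ± 6.68, and KCNMA1, a calcium-activated potassium channel, rose from 192 ± 20.6 to 610.1 ± 47.2. SLC12A2, a chloride importer of secretory epithelia, was 7128, 7037 and 6158 in the controls and 2877, 3013 and 2386 in the OE libraries.

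Proliferation genes changed little. Of 50 replication genes 21 rose, 5 fell and 24 were not called, and none changed 2-fold. The 52.0% called lie near the 50.1% of protein-coding genes. Without limma's trend and robust settings 10 rose. Of 50 mitotic genes 21 rose and 8 fell, so that 58.0% were called against 50.1% of protein-coding genes. MKI67 was 4861, 4712 and 4611 in the controls and 5945, 5991 and 6115 in the OE libraries, and CDC20 rose from 2295 ± 75.4 to 3048 ± 51.8. UHRF1, a factor that maintains DNA methylation, rose from 1647 ± 24.8 to 2353 ± 87.2. Among 36 p53 targets and cell cycle inhibitors 11 rose and 11 fell, so that 61.1% were called against 50.1% of protein-coding genes. CDKN1A was not called at 0.041, nor MDM2 at 0.088, TP53I3 rose from 1287 ± 19.2 to 2131 ± 33.4 and GDF15 fell from 2504 ± 84.6 to 1456 ± 71.6. Glycolysis and hypoxia genes had 14 rises and 12 falls among 41, so that 63.4% were called against 50.1% of protein-coding genes. EPAS1, the gene of HIF-2 alpha, rose from 747 ± 35.2 to 1407 ± 81.8. Of 13 neuroendocrine genes tested, out of 40 names, 5 fell and none rose, so that 38.5% were called against 50.1% of protein-coding genes. SNAP25 was 522, 476 and 482 in the controls and 238, 282 and 219 in the OE libraries. NEUROD1 and INSM1, defining factors of that cell type, were not in the table.

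Metallothioneins, which bind zinc and copper, were tested in 5 members, of which MT2A was 1644, 1560.4 and 1603 in the controls and 4032, 3855 and 3348 in the OE libraries. Cytosolic ribosomal protein genes rose in 19 of 40 and fell in 1, all under 1.25-fold, and 6 rose without limma's trend and robust settings, 11 without OE 1 and 12 without control 3. Mitochondrial messenger RNAs were not called in any of 13, with a median of -0.20, while of all 31 genes tested on the mitochondrial chromosome 6 rose and none fell, with a median of 0.05. With edgeR 8 of the 13 fell, as they did without control 1. Whether these 2 sets of transcripts, which can follow RNA quality, have a part in other results was not tested.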

How the data were processed

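Total RNA of 3 control and 3 OE A549 cultures was sequenced from strand-specific libraries. Per the submitters' processing notes the authors used CASAVA, FastQC, Trim Galore, STAR with hg38, and DESeq2; their versions, as well as the read counter, gene models and strand setting, were not given in the sources used here. Values per library, as deposited, and their mean form a signal: each read count over the size factor that the authors gave its library. Whole reads were recovered from all of them within 0.01. The authors' fold changes with their errors are on the log2 scale, their Wald statistic is a score, and their raw and adjusted p-values came with the deposited table of DESeq2. An adjusted p under 0.05 was held by 5662 genes of the authors' deposited table, and 5650 of these were called here in the same direction.

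The table held 21306 genes, none with a mean under 1.13. Of these, 16707 passed the filter at a mean of 10, and 4599 did not. Genes were tested with limma 3.58.1 (trend and robust) in R 4.3.3 on log2(value + 1) with Benjamini-Hochberg adjustment at 0.05, after a check on simulated data. The design named this test for normalized values. Alternatives were TMM scaling, no filter, a filter at 50, a pseudocount of 5, limma's treat at 0.5, the replicate number as a block, limma without trend and robust settings, edgeR 4.0.16, DESeq2 1.42.0 and limma-voom on recovered reads, and leaving out each library.

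The members and the 38 lists, with 1853 distinct names of which 1445 were tested, were chosen with earlier results of these data known. Genes are named if they rank 9 to 25 among rises or falls (mean of at least 50 in the higher group, groups not overlapping, no clone or pseudogene names), lead a list (up to 6 called, up to 3 not called), or changed at least 1.5-fold at the highest counts. Other members named for their known role were chosen after their values were seen. Some genes and 1 list that these rules select are not reported here. Coordinates and types are from GENCODE 29 (GRCh38), symbols from a table of gene names (99.97% of identifiers), and promoters from RefSeq (GRCh38.p14).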

Additional observations from a re-analysis of the deposited data

How the results depend on the processing

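Under a test against an absolute log2 fold change of 0.5, 930 genes passed, 395 higher and 535 lower, of which 627 were called at 2-fold or more, 366 of them lower. With the filter at a mean of 50, 486 genes passed at 2-fold or more, 201 higher and 285 lower, since fewer low genes were tested. In the other settings, counts of calls stayed within 1.5 times of 7417: 7428 with TMM, 7441 without a filter, 7460 with a pseudocount of 5, 5727 with limma without trend and robust settings, 7454 with edgeR, 6045 with DESeq2 and 7485 with limma-voom, and from 6439 to 6977 when 1 library was left out (913 to 1017 at 2-fold or more). No named gene changed sign in a call. Of 240 called genes chosen for naming, 61 did not pass the test against 0.5, and at most 5 lost the call in any other setting. Of 76 counts for lists and directions, 69 moved by more than 1.5 times in the test against 0.5 and 13 in another setting. With the replicate number as a block 7416 genes were called (3733 higher, 3683 lower). Over all tested genes, same-numbered libraries did not deviate together, with correlations of -0.023, -0.065 and -0.014. Of 6 libraries, 0 correlated best with its own number. These correlations take in many low genes and cannot settle whether the numbers pair the libraries. Among falls of at least 2-fold at 200 or more in the higher group, control 3 and OE 3 were both most often lowest (69.9% and 75.9%). With 3 libraries a group, changes of genes under 50 normalized counts are the least certain. Their median SE was 0.314 on the log2 scale, against 0.036 for genes over 5000, and 23.2% of them were called.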

Other observations

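Some changes of at least 2-fold lay next to each other on the genome. Along each chromosome, 59 runs of adjacent tested protein-coding genes changed at least 2-fold in 1 direction, 44 of them downward and 15 upward, and they held 129 of the 712 protein-coding genes that changed that much (18.1%). Of the 13105 protein-coding genes tested, 426 fell and 286 rose at least 2-fold, so more falling than rising runs could be met in any order. How many runs a random order would give was not worked out. The runs were counted after the values were seen, and no test was made. The 10 runs of 3 or more genes were 8 falls and 2 rises. The chemokine cluster of chromosome 4 (73869393 to 74038807, GRCh38) fell over 4 tested genes: CXCL1 from 92.2 ± 11.3 to 33.2 ± 8.68, PF4 from 21.5 ± 4.06 to 6.57 ± 0.719, CXCL5 and CXCL3. On chromosome 1, PTGS2 fell beside PLA2G4A, the phospholipase that releases its substrate, which was 1697, 1681 and 1475 in the controls and 400.0, 431 and 291 in the OE libraries.

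The other falling runs were FGB, FGA and FGG on chromosome 4, AKR1C1, AKR1C2 and AKR1C3 on chromosome 10, IFITM2, IFITM1 and IFITM3 on chromosome 11, RASSF9, NTS and MGAT4C on chromosome 12, CYP4F3, CYP4F12 and CYP4F11 on chromosome 19, and TSPAN13, AGR2 and AHR on chromosome 7. AHR, the receptor of dioxin and related ligands, was 1226, 1117 and 966 in the controls and 536, 541 and 499 in the OE libraries. RASSF9 fell from 411 ± 32.1 to 127 ± 12.3 and CYP4F12 from 339 ± 31.3 to 79.5 ± 13.1. The rising runs were HOXD9, HOXD10 and HOXD11 on chromosome 2, and ADAM19, NIPAL4 and a gene that overlaps both on chromosome 5. HOXD10 was 20.9, 13.8 and 18.5 in the controls and 62.7, 49.9 and 39.1 in the OE libraries, while HOXB2, of another HOX cluster, fell from 161 ± 28 to 57.5 ± 16.2. Several of these runs hold near-identical copies or overlapping genes (the aldo-keto reductases, CYP4F, IFITM, HOXD10 with HOXD11), between which reads may have been shared.

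Pairs followed the same form. MUC5AC and MUC5B on chromosome 11 both fell, as did AQP7 and AQP3 on chromosome 9, SCNN1G and SCNN1B on chromosome 16, and MAOA and MAOB, the monoamine oxidases, on the X chromosome. MAOA was 208, 215 and 169 in the controls and 86.4, 67.6 and 61.2 in the OE libraries. The 426 protein-coding genes that fell at least 2-fold had a median exon length of 4202.5 bases and the 286 that rose one of 5161, against 5105 over all tested protein-coding genes. Their median spans in the genome were 31.01 and 52.98 kb, against 33.03 kb. Their median levels were 50.1 and 52.0 normalized counts, against 560, so the classes differ from all genes in level too. The part of level in the lengths was not tested.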
